A study of Mus musculus with 19 samples.

Results

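The 10 genes described are the orphan nuclear receptors Nr4a1, Nr4a2 and Nr4a3, the Krüppel-like factors Klf2, Klf4, Klf6 and Klf10, the immediate early response genes Ier2 and Ier3, and Arc, which encodes a cytoskeleton-associated protein induced by neuronal activity. They were chosen by name from 55401 gene identifiers counted per library. All 10 were found, and all 10 passed the filter on low counts that kept 18039 genes for testing. After 2 h of thapsigargin 6 of the 10 genes rose, beside 3.01% of all genes tested, and none fell, beside 1.51%. Klf10 was 8.97-fold and Arc 4.78-fold higher than in vehicle. At 6 h 4 genes were higher (Klf4, Klf10, Klf6 and Nr4a3), beside 13% of all genes, and Nr4a1 was lower, beside 8.79%. At 12 h Ier3 was higher, beside 6.29% of all genes, and Nr4a1, Klf2 and Arc were lower, beside 6.77%. Of the calls at 12 h, only that of Arc stayed when any 1 library was left out.

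RNA was taken from C2C12 cells, a line of mouse myoblasts labelled wild type, and polyadenylated RNA was sequenced in 19 libraries. The cells received 100 nM thapsigargin for 2 h (n = 3), 6 h (n = 3) or 12 h (n = 2), or 100 nM thapsigargin for 6 h and then medium free of the drug for 48 h, the recovery group (n = 3). The vehicle groups received DMSO for 2 h (n = 3), 6 h (n = 3) or 12 h (n = 2), and all groups came from the same line. The recovery cells were in culture longer than any vehicle group, and the effect of that longer time and of drug removal cannot be told apart.

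Thapsigargin blocks SERCA, the pump that moves calcium into the endoplasmic reticulum, so that the store empties and cytosolic calcium rises. NR4A receptors have no classical ligand that switches them on, and their activity follows their own transcription, which calcium, cAMP and growth factor signals start within a short time through factors such as CREB and MEF2. In skeletal muscle NR4A genes are known for a rapid rise after adrenergic stimulation or exercise and for control of glucose and lipid genes, while Krüppel-like factors are zinc-finger proteins that bind GC-rich promoters and take part in cell cycle exit and differentiation.

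The starts of the genes were read from RefSeq promoter windows on GRCm38.p6, each with 250 bases before and 50 after the annotated start. Windows were found for 7 of the 10 genes. Klf10, Ier2 and Arc were not matched. The core of the cAMP response element, TGACG on either strand, occurred 4 times in the windows of each of Nr4a1, Nr4a2 and Nr4a3, once in those of Klf2 and Klf4, and not in those of Klf6 and Ier3. Of 32851 mouse windows of the same length, 20.8% held at least 1 such core and 0.231% held 4 or more. Stretches before the RefSeq start are printed, cut short where the GENCODE start of the gene lies inside them. They are shown because the NR4A windows share this count and because a MEF2 box stands in those of Nr4a2 and Klf2. Capitals mark TGACG or its reverse complement and the MEF2 boxes.
Nr4a1: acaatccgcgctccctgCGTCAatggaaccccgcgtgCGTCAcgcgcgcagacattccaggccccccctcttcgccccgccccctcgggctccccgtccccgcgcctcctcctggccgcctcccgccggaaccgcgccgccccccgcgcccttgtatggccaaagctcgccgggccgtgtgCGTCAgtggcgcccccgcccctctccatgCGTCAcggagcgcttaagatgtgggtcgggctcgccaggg
Nr4a2: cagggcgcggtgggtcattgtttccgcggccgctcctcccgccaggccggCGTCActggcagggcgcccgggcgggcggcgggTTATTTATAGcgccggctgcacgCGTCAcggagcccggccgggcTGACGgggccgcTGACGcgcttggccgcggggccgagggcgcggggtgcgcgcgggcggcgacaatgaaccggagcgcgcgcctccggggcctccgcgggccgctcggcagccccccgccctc
Nr4a3: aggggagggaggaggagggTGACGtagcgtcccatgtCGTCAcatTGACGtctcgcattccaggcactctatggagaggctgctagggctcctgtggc
Klf2: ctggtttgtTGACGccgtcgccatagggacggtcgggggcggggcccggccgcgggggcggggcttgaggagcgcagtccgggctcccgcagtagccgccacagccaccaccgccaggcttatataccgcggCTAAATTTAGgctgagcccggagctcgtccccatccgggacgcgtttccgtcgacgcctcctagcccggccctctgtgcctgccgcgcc
The Nr4a1 stretch is chr15:101266596-101266845 on the plus strand, with cores beginning at positions -233, -213, -69 and -40 from the start. It lies inside the gene as annotated by GENCODE, which begins further upstream at 101254269. The Nr4a2 stretch is chr2:57124004-57124253 on the minus strand, with cores at -200, -144, -123 and -111. The Nr4a3 stretch is chr4:48045055-48045152 on the plus strand and shows 3 of its 4 cores, at -231, -213 and -205, while the one at -147 lies past the start in the GENCODE annotation. The Klf2 stretch is chr8:72318812-72319032 on the plus strand with a core at -241.

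The MEF2 boxes lie from -167 to -158 in the Nr4a2 window and from -118 to -109 in the Klf2 window. A MEF2 box was found in 3.19% of all windows. Of the other motifs searched on both strands, the full cAMP response element TGACGTCA (1.79% of windows, and itself a match to the TGACG core), the C/EBP-ATF composite TGATGNAA (3.97%), the CArG box bound by SRF (1.63%) and the EGR1 element GCGTGGGCG (0.612%) had no match in the 7 windows. A match is a string of letters and was not tested for binding.

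Library totals lay between 17.31 and 40.96 M reads assigned to genes, and the 4 libraries at 12 h and recovery replicate 1 were the shallowest. Mitochondrially encoded genes took 15.8% of gene reads in DMSO 2 h replicate 3 and 14.89% in recovery replicate 1, against 1.41% to 3.07% in the other 17 libraries, and counts that move by over 1.5 times without these 2 libraries are also given without them. Of the labelled cell type, 6 myoblast genes had counts in every group, and their sum, led by Des, was between 554 and 5008 counts per megaread (CPM) in every library. These genes did not move together. Myod1, a myogenic factor, averaged 5.03 CPM in thapsigargin at 12 h, 86.3 CPM in thapsigargin at 6 h, 14.4 CPM in DMSO at 12 h and 212 CPM in DMSO at 2 h. Myf5, another such factor, averaged 178 CPM in thapsigargin at 6 h and 19 CPM in DMSO at 6 h. The 5 macrophage markers summed to between 2.41 and 11.2 CPM and were led by Cd68, while Adgre1 had no count in any group. The 5 endothelial markers summed to at most 4.92 CPM. The 5 epithelial markers summed to between 16 and 28.8 CPM in thapsigargin at 6 h and between 1.12 and 3.36 CPM in DMSO at 6 h, with Epcam at 0 in both. The 5 neuronal markers summed to between 72.7 and 351 CPM and were led by Tubb3, while Snap25 had no count outside thapsigargin at 6 h, where it had 2. Group means of Syn1 ran from 13.1 CPM in DMSO at 12 h to 64.9 CPM in DMSO at 2 h. Those of Syt1 reached 2.02 CPM in DMSO at 12 h, and those of Rbfox3 reached 0.241 CPM in thapsigargin at 12 h. The muscle differentiation markers, led by Acta1 in all groups but thapsigargin at 12 h, summed to between 5.83 and 169 CPM. The part of these lists in the results below was not tested.

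At 2 h, 6 of 10 genes were called higher in thapsigargin than in DMSO (adjusted p under 0.05), beside 3.01% of all genes tested, and none was called lower, beside 1.51%. In edgeR at an unadjusted p under 0.05 and in DESeq2, 0 of the 10 were lower. Without the 2 libraries of high mitochondrial share, 9 were called higher, all but Nr4a2. Calls over all genes then numbered 1859, against 816 in the full fit. The median log2 difference in the full fit was 1.56 over the 10 genes and -0.04 over all genes tested. At 6 h, 4 genes were called higher (13% of all genes) and 1 lower (8.79%), with a median of 0.28 over the 10 genes and 0.01 over all genes tested. At 12 h, 1 was called higher (6.29% of all genes) and 3 lower (6.77%), with medians of 0.08 and 0.01. Beside these values, the myoblast marker Myf5 averaged 218 CPM in thapsigargin at 12 h and 28.3 CPM in DMSO at 12 h, Myod1 averaged 5.03 CPM in thapsigargin and 14.4 CPM in DMSO, and Des averaged 369 CPM in thapsigargin and 389 CPM in DMSO. In bulk RNA, fewer cells that express a gene and less RNA per cell cannot be told apart.

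**Figure D1:**
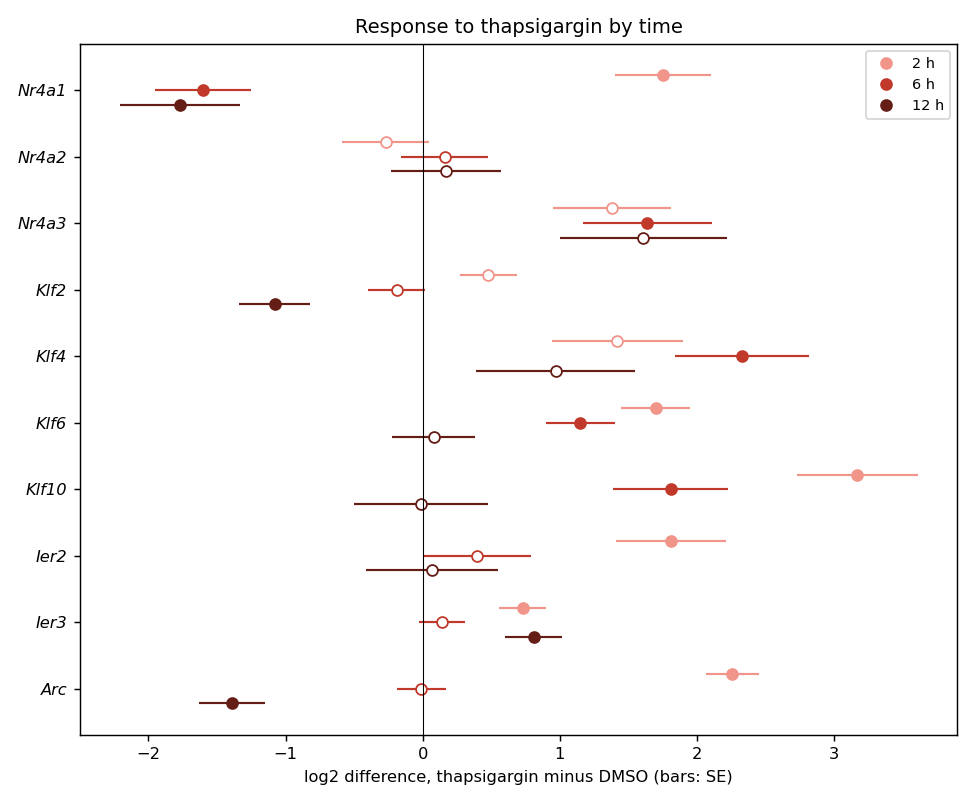
Log2 difference, thapsigargin minus DMSO, for the 10 genes at 2, 6 and 12 h, with bars for the SE of the fit; filled points have an adjusted p under 0.05 and open points do not. Nr4a1 and Arc stand right of 0 at 2 h and left of 0 at 12 h, and Nr4a2 stays near 0.

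Nr4a1 encodes the receptor NUR77. It had 260, 269 and 309 CPM in thapsigargin at 2 h and 62.7, 51.8 and 135 CPM in DMSO at 2 h, 3.36-fold higher (log2 difference 1.75, SE 0.35, adjusted p = 0.0082). The groups did not overlap, and the highest vehicle library was replicate 3, the one with the high mitochondrial share. Without that library the log2 difference was 2.29 (adjusted p = 0.0011).

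At 6 h the direction was the opposite. Nr4a1 had 8.12, 6.74 and 8.08 CPM in thapsigargin and 26.7, 26.1 and 16.6 CPM in DMSO (log2 difference -1.60, SE 0.35, adjusted p = 0.0035). At 12 h it had 3.97 and 3.47 CPM in thapsigargin and 12.6 and 12.9 CPM in DMSO (log2 difference -1.77, SE 0.44, adjusted p = 0.013). Every drug library lay below every vehicle library at both times, and the call at 12 h was lost when any of the 4 libraries was left out (adjusted p up to 0.13).

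Nr4a2, the receptor NURR1, did not pass the test at any time. It had 64.0, 59.5 and 60.9 CPM in thapsigargin at 2 h and 51.0, 46.7 and 125 CPM in DMSO at 2 h (log2 difference -0.27, SE 0.32, adjusted p = 0.78). Replicate 3 of DMSO stood above all drug libraries and replicates 1 and 2 below them, and without replicate 3 the difference was 0.33 (adjusted p = 0.61). At 6 h Nr4a2 had 27.8, 15.5 and 16.1 CPM in thapsigargin and 17.3, 19.6 and 16.2 CPM in DMSO, and the groups overlapped. At 12 h it had 19.3 and 20.8 CPM in thapsigargin and 17.8 and 17.6 CPM in DMSO (log2 difference 0.17, SE 0.40, adjusted p = 0.88, interval of the difference from -0.69 to 1.04).

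Nr4a3, the receptor NOR-1, was the least abundant of the 10 genes. It had 9.29, 7.81 and 10.1 CPM in thapsigargin at 2 h and 2.43, 1.97 and 6.06 CPM in DMSO at 2 h. The groups did not overlap, but the log2 difference of 1.38 (SE 0.43) missed the threshold (adjusted p = 0.084), and it passed without DMSO replicate 3 (2.04, adjusted p = 0.013). At 6 h Nr4a3 had 1.64, 0.799 and 1.84 CPM in thapsigargin, against 0.549, 0.498 and 0.316 CPM in DMSO (log2 difference 1.64, SE 0.47, adjusted p = 0.019). Leaving out DMSO 6 h replicate 2 or 3 or thapsigargin 6 h replicate 1 or 3 ended that call, with values between 1.42 and 1.68 and adjusted p up to 0.076. At 12 h it had 1.27 and 1.25 CPM in thapsigargin and 0.365 and 0.461 CPM in DMSO (log2 difference 1.61, SE 0.61, adjusted p = 0.10). The drug libraries were above the vehicle libraries at all 3 times.

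**Figure D2:**
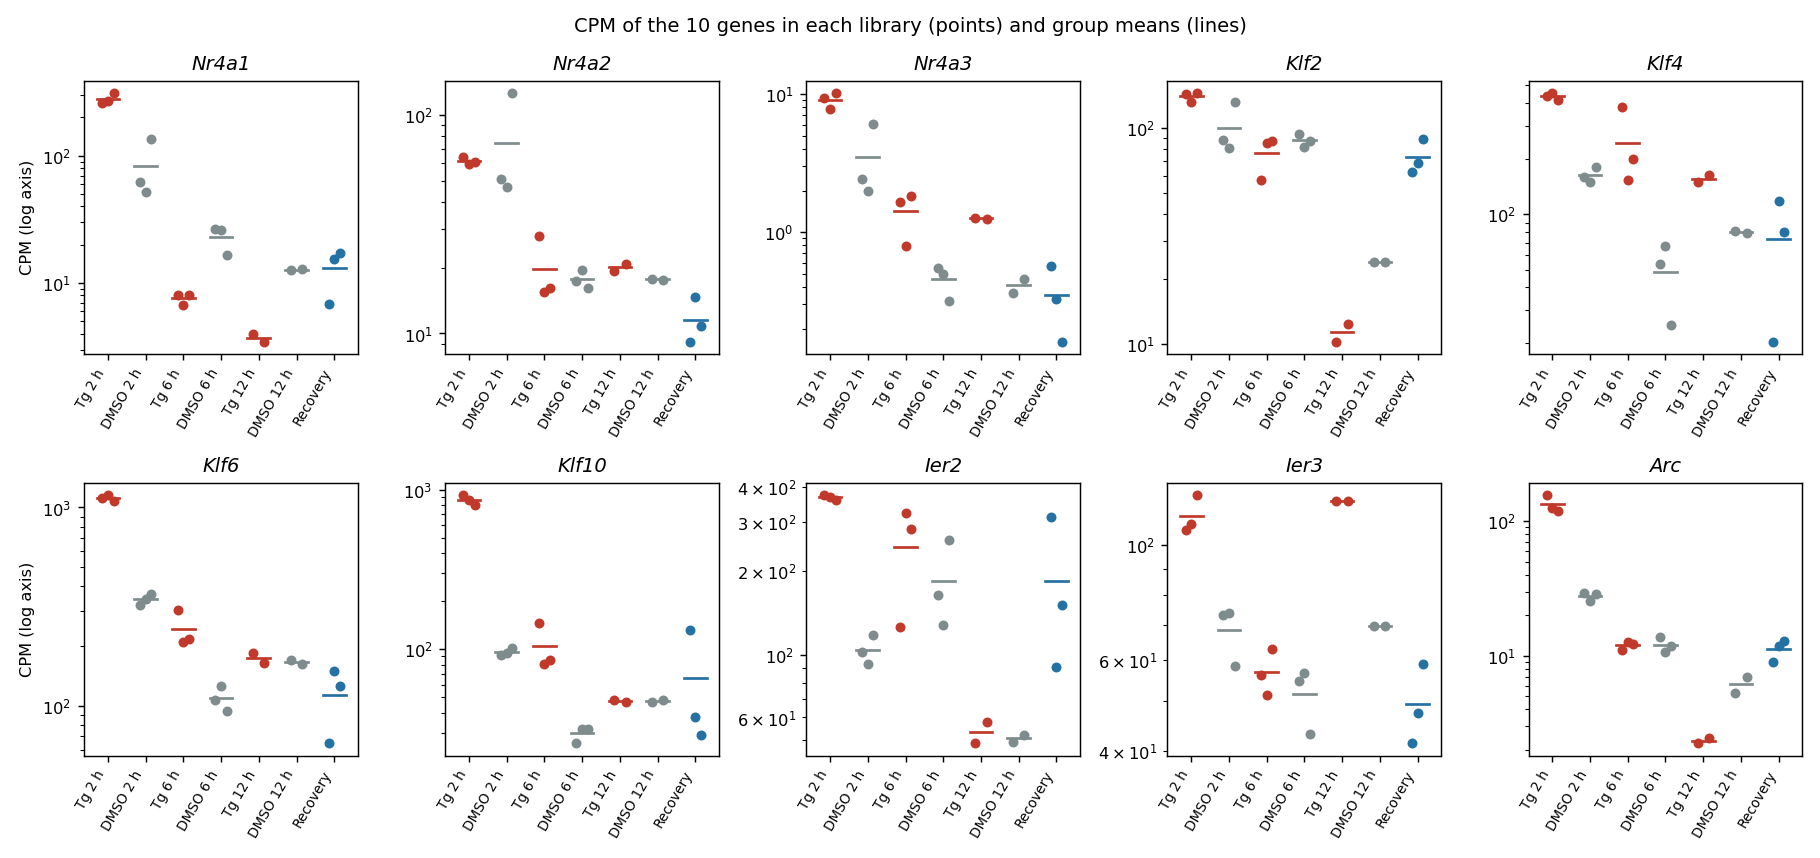
CPM of the 10 genes in each of the 19 libraries (points, log axis) with group means (lines), in the order thapsigargin (Tg) and DMSO at 2, 6 and 12 h, then recovery. Klf6 and Klf10 are highest in thapsigargin at 2 h, and Nr4a1 and Arc are lowest in thapsigargin at 12 h.

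Klf10, a factor first described as induced by TGF-beta, had the largest log2 difference of the 10 genes at 2 h. It had 922, 864 and 802 CPM in thapsigargin and 92.1, 94.6 and 102 CPM in DMSO (log2 difference 3.17, SE 0.44, adjusted p = 4.6e-04). At 6 h it had 146, 80.2 and 85.7 CPM in thapsigargin and 25.7, 31.8 and 31.4 CPM in DMSO (log2 difference 1.81, SE 0.42, adjusted p = 0.0048). At 12 h the levels were 47.9 and 46.6 CPM in thapsigargin and 46.9 and 48.0 CPM in DMSO, and the groups overlapped. At 6 h thapsigargin replicate 1 was the highest of its group, and without it the difference was 1.49 (adjusted p = 0.024).

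Klf6, an activator of growth arrest and injury genes, had 1122, 1154 and 1073 CPM in thapsigargin at 2 h and 323, 346 and 364 CPM in DMSO at 2 h (log2 difference 1.70, SE 0.25, adjusted p = 8.8e-04). At 6 h it had 302, 209 and 217 CPM in thapsigargin and 107, 126 and 94.4 CPM in DMSO (log2 difference 1.15, SE 0.25, adjusted p = 0.0032). Klf6 kept its call at 2 h and at 6 h when any 1 library was left out. At 12 h it had 185 and 164 CPM in thapsigargin and 169 and 162 CPM in DMSO (log2 difference 0.08, SE 0.30, adjusted p = 0.94).

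Klf4, known from pluripotent and epithelial cells, had 438, 452 and 417 CPM in thapsigargin at 2 h and 159, 150 and 181 CPM in DMSO at 2 h. The log2 difference of 1.42 (SE 0.48) missed the threshold (adjusted p = 0.12) although the groups did not overlap, and it was called by DESeq2 (adjusted p = 0.024) and without the 2 libraries of high mitochondrial share (1.56, adjusted p = 0.020). At 6 h Klf4 had 380, 154 and 200 CPM in thapsigargin, against 53.5, 67.1 and 25.0 CPM in DMSO (log2 difference 2.33, SE 0.49, adjusted p = 0.0027). The means of both groups were lower than at 2 h. Drug replicate 1 was the highest, and without it the difference was 1.87 (adjusted p = 0.014). At 12 h Klf4 had 149 and 163 CPM in thapsigargin and 80.6 and 78.9 CPM in DMSO (log2 difference 0.97, SE 0.58, adjusted p = 0.35).

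Klf2, a MEF2-regulated factor known from endothelium and quiescent lymphocytes, followed another order. It had 143, 132 and 144 CPM in thapsigargin at 2 h and 88.1, 80.9 and 131 CPM in DMSO at 2 h (log2 difference 0.48, SE 0.21, adjusted p = 0.24). DMSO replicate 3, of high mitochondrial share, was the highest vehicle library. Without it the difference was 0.73 (adjusted p = 0.060), and without recovery replicate 1 as well it was 0.79 and was called (adjusted p = 0.012). At 6 h it had 57.4, 85.2 and 87.0 CPM in thapsigargin and 93.2, 81.7 and 87.1 CPM in DMSO (log2 difference -0.19, SE 0.21, adjusted p = 0.59). At 12 h Klf2 fell to 10.3 and 12.4 CPM in thapsigargin, against 23.9 and 24.1 CPM in DMSO (log2 difference -1.08, SE 0.26, adjusted p = 0.012). Only the groups at 6 h overlapped, and the call at 12 h was lost when any of the 4 libraries was left out (adjusted p up to 0.14).

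Arc, a protein of synapses whose gene serves as a marker of calcium and SRF activity, had 156, 125 and 119 CPM in thapsigargin at 2 h and 29.4, 25.4 and 28.7 CPM in DMSO at 2 h (log2 difference 2.26, SE 0.19, adjusted p = 5.1e-06). At 6 h it had 11.1, 12.6 and 12.3 CPM in thapsigargin and 13.8, 10.7 and 11.8 CPM in DMSO (log2 difference -0.01, SE 0.18, adjusted p = 0.98, interval from -0.41 to 0.39). At 12 h Arc fell to 2.24 and 2.45 CPM in thapsigargin, against 5.31 and 7.01 CPM in DMSO (log2 difference -1.39, SE 0.24, adjusted p = 9.3e-04). The groups were apart at 2 h and 12 h, in opposite directions, and both calls stayed when any 1 library was left out.

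Ier2, a short nuclear protein encoded by an early gene, had 374, 367 and 360 CPM in thapsigargin at 2 h and 103, 92.9 and 118 CPM in DMSO at 2 h (log2 difference 1.81, SE 0.40, adjusted p = 0.015). The groups did not overlap, and leaving out DMSO replicate 1, DMSO replicate 2 or thapsigargin replicate 1 ended the call (adjusted p up to 0.065). At 6 h Ier2 had 126, 324 and 282 CPM in thapsigargin and 165, 128 and 259 CPM in DMSO, and at 12 h 48.5 and 57.9 CPM in thapsigargin and 49.1 and 52.1 CPM in DMSO. The groups overlapped at both of these times.

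Ier3, known as IEX-1 and linked to survival signalling, had 107, 110 and 125 CPM in thapsigargin at 2 h and 73.3, 73.8 and 58.3 CPM in DMSO at 2 h (log2 difference 0.73, SE 0.17, adjusted p = 0.023). The call ended without any 1 of 5 of the 6 libraries, all but DMSO replicate 1, with adjusted p up to 0.10. At 6 h Ier3 had 56.0, 51.4 and 63.0 CPM in thapsigargin and 54.7, 56.6 and 43.1 CPM in DMSO. At 12 h it had 122 and 122 CPM in thapsigargin and 69.8 and 69.9 CPM in DMSO (log2 difference 0.81, SE 0.21, adjusted p = 0.018). The drug libraries were higher than vehicle at 2 h and 12 h and overlapped with it at 6 h, and the call at 12 h was lost when any of the 4 libraries was left out (adjusted p up to 0.15).

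The change of the drug response with time was tested directly as a difference of log2 differences. From 2 h to 6 h the response of 2 genes fell, beside 1.87% of all genes tested, and none rose, beside 2.12% (0 at an unadjusted p under 0.05 in edgeR and 0 in DESeq2). These were Nr4a1 (-3.35, SE 0.49, adjusted p = 0.0011) and Arc (-2.27, SE 0.26, adjusted p = 1.5e-04). Leaving out the 2 libraries of high mitochondrial share, 5 genes fell, with Klf10 (-1.49, adjusted p = 0.0044), Klf2 (-1.01, adjusted p = 0.013) and Ier2 (-1.59, adjusted p = 0.048) added. Between 6 h and 12 h none of the 10 was called in either direction, beside 0.0388% of all genes higher and 0.532% lower. At an unadjusted p under 0.05, 1 was higher and 4 were lower in edgeR. The shares of all genes just given are at an adjusted p under 0.05 and are not a measure for these unadjusted counts. DESeq2 called 1 of the 10, Arc, and 437 of all genes. Arc was the nearest to the threshold in edgeR (-1.38, SE 0.30, adjusted p = 0.053), and it was called along with Klf6 and Klf10 when the 2 libraries of high mitochondrial share were left out.

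Between 2 h and 12 h the response of 5 genes fell, beside 3.15% of all genes tested, and none rose, beside 1.92% (0 at an unadjusted p under 0.05 in edgeR and 0 in DESeq2). Arc (-3.65, SE 0.31, adjusted p = 3.7e-06) and Nr4a1 (-3.52, SE 0.56, adjusted p = 0.0014) changed most. Klf10 (-3.17, SE 0.65, adjusted p = 0.0089), Klf6 (-1.62, SE 0.39, adjusted p = 0.024) and Klf2 (-1.56, SE 0.34, adjusted p = 0.012) followed. When 1 library was left out, Arc and Nr4a1 kept their calls in all cases, while Klf10 lost its call without either drug library of 12 h, Klf2 without DMSO 12 h replicate 1 or 2 or thapsigargin 12 h replicate 1, and Klf6 without any library of 2 h or 12 h other than replicate 3 of either group at 2 h. Nr4a2, Nr4a3, Klf4, Ier2 and Ier3 did not pass the test of a difference between times. The intervals were wide for Klf4 (12 h minus 2 h -0.45, from -2.07 to 1.17) and Nr4a3 (0.23, from -1.33 to 1.79).

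The vehicle groups of the 3 times differed from each other. Their libraries also differed in how counts depended on transcript length, as given below. Time in DMSO and such differences between sets of libraries cannot be told apart. In DMSO at 6 h 7 of the 10 genes were lower than in DMSO at 2 h, beside 25% of all genes tested, and none was higher, beside 24.6% (0 at an unadjusted p under 0.05 in edgeR and 0 in DESeq2). The median log2 difference was -1.68 over the 10 genes and -0.02 over all genes tested. Nr4a3 had the largest fall (0.455 ± 0.123 CPM in DMSO at 6 h and 3.49 ± 2.24 CPM in DMSO at 2 h, SD, n = 3 each, log2 difference -2.92, SE 0.48, adjusted p = 3.9e-04), followed by Nr4a2 (-2.07), Nr4a1 (-1.84), Klf4 (-1.75), Klf10 (-1.70), Klf6 (-1.66) and Arc (-1.20). Without DMSO 2 h replicate 3 these calls stayed, with values of -2.25 for Nr4a3, -1.47 for Nr4a2 and -1.31 for Nr4a1. The myoblast markers also differed between these groups, with Myod1 at a mean of 101 CPM in DMSO at 6 h and 212 CPM in DMSO at 2 h, Pax7 at 2.04 CPM in DMSO at 6 h and 4.83 CPM in DMSO at 2 h, and Des at 2088 CPM in DMSO at 6 h and 1150 CPM in DMSO at 2 h. Ier2 lay higher in every library of DMSO at 6 h than of DMSO at 2 h but was not called (0.82, SE 0.39, adjusted p = 0.093).

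In DMSO at 12 h 3 of the 10 genes were lower than in DMSO at 6 h, beside 16.8% of all genes tested, and none was higher, beside 18.7% (2 at an unadjusted p under 0.05 in edgeR and 2 in DESeq2). Klf2 (-1.86, SE 0.25, adjusted p = 2.1e-04) had 24.0 ± 0.14 CPM (SD, n = 2) in DMSO at 12 h and 87.3 ± 5.74 CPM (SD, n = 3) in DMSO at 6 h. Ier2 (-1.86, SE 0.47, adjusted p = 0.0091) and Arc (-0.97, SE 0.21, adjusted p = 0.0050) were the others. These values keep the dependence on transcript length given below, which was of opposite sign in the libraries of DMSO at 6 h and 12 h. With each library's length trend taken out, the median over the 10 genes was -0.27, beside -0.04 over all genes tested. In the full fit these medians were -0.07 and 0. Ier2 lost its call without either DMSO library of 12 h and Arc without DMSO 12 h replicate 1 (adjusted p = 0.093). With the 2 libraries of high mitochondrial share left out, 4 genes were lower, with Nr4a1 added (-0.88, adjusted p = 0.0019), and Klf6 (0.58), Klf10 (0.66) and Ier3 (0.42) were higher. Des averaged 389 CPM in DMSO at 12 h and 2088 CPM in DMSO at 6 h, and Myod1 averaged 14.4 CPM in DMSO at 12 h and 101 CPM in DMSO at 6 h. Of the listed myoblast markers, Myf5 alone had the higher mean at 12 h (28.3 CPM in DMSO at 12 h and 19 CPM in DMSO at 6 h).

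In DMSO at 12 h 6 genes were lower than in DMSO at 2 h, beside 4.14% of all genes tested, and none was higher, beside 3.03% (0 at an unadjusted p under 0.05 in edgeR and 0 in DESeq2). They were Nr4a3 (-3.07), Nr4a1 (-2.70), Arc (-2.18), Nr4a2 (-2.07), Klf2 (-2.06) and Klf6 (-1.06). Nr4a1, Klf2 and Arc kept their calls when any 1 library was left out. Nr4a2 and Nr4a3 lost theirs without DMSO 12 h replicate 1 or 2, and Klf6 lost its call without any 1 of the 5 libraries.

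The libraries also differed in how counts depended on transcript length. For protein-coding genes, the deviation of log2 CPM from the gene's mean over all libraries was taken. The median deviation of genes with at least 5802 exon bases minus that of genes with at most 3244 was compared. It was between 0.59 and 0.99 in libraries of 2 h and between 0.38 and 0.57 at 12 h. It was between -1.13 and -0.55 in DMSO at 6 h, between -1.05 and 0 in thapsigargin at 6 h and between -1.3 and -0.11 in recovery. The 10 genes had between 1131 (Ier3) and 5987 (Nr4a3) exon bases. With each library's length trend taken out, the 7 genes lower in DMSO at 6 h than in DMSO at 2 h stayed called, and Klf2 (-0.84, adjusted p = 0.0049) and Ier3 (-1.26, adjusted p = 5.4e-04) joined them, while the value of Ier2 was 0.04 (adjusted p = 0.95).

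**Figure D3:**
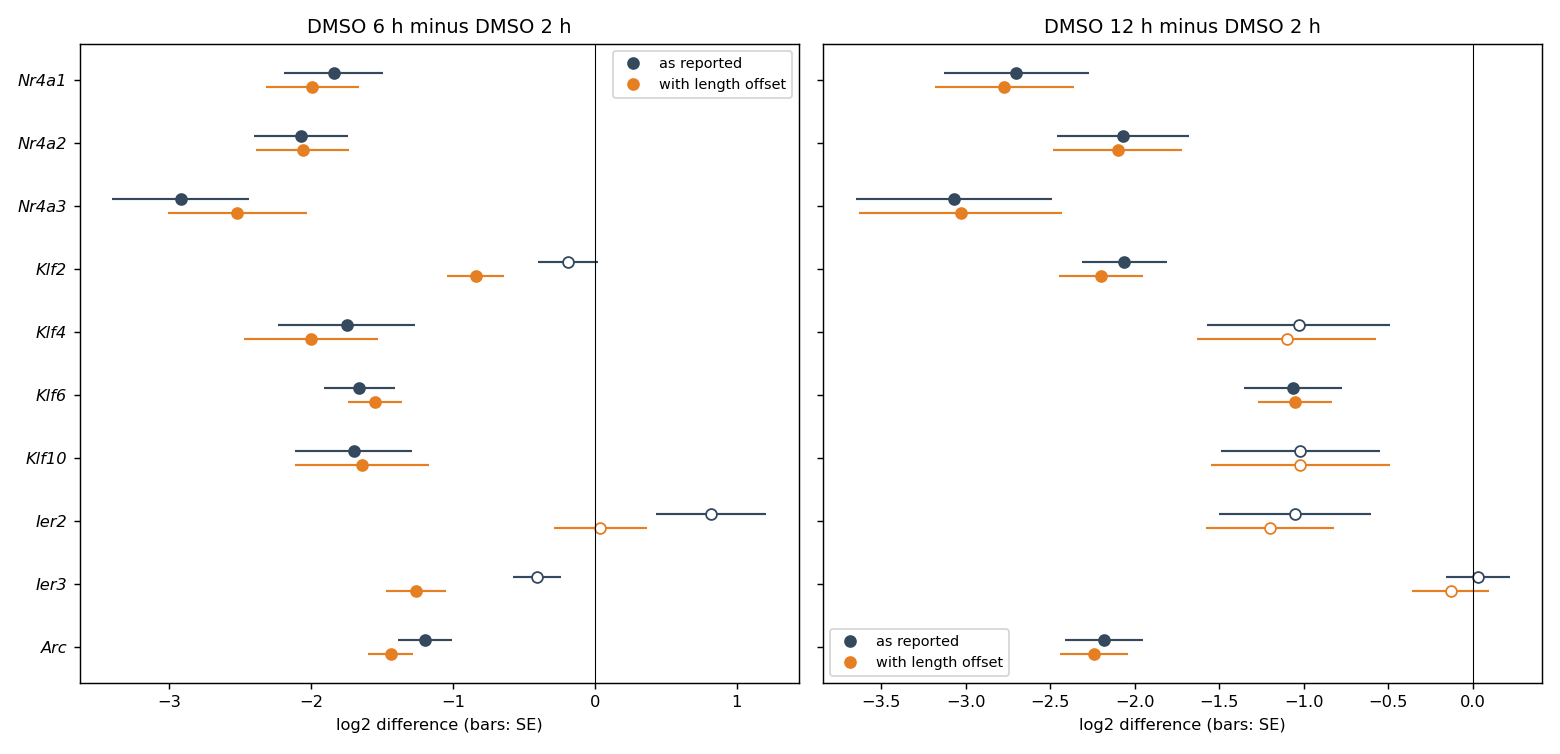
Log2 difference between vehicle groups for the 10 genes, DMSO at 6 h minus DMSO at 2 h (left) and DMSO at 12 h minus DMSO at 2 h (right), as fitted and with each library's length trend as an offset; bars are SE, filled points have an adjusted p under 0.05. Klf2, Ier2 and Ier3 move left with the offset at 6 h, and the NR4A genes lie left of 0 in both panels.

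After 48 h without the drug, 3 of the 10 genes were lower in recovery than in thapsigargin at 6 h, beside 13.9% of all genes tested, and none was higher, beside 11.6% (1 at an unadjusted p under 0.05 in edgeR and 0 in DESeq2). The median log2 difference was -0.53 over the 10 genes and 0.04 over all genes tested. These values share the thapsigargin libraries with the comparison against DMSO at 6 h.

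Nr4a3 had 0.564, 0.328 and 0.161 CPM in recovery and 1.64, 0.799 and 1.84 CPM in thapsigargin at 6 h (log2 difference -2.16, SE 0.50, adjusted p = 0.0047). Klf4 had 20.3, 118 and 80.1 CPM in recovery and 380, 154 and 200 CPM in thapsigargin at 6 h (-1.74, SE 0.48, adjusted p = 0.014), and without thapsigargin replicate 1 the call was lost (-1.28, adjusted p = 0.073). Klf6 had 64.5, 149 and 126 CPM in recovery and 302, 209 and 217 CPM in thapsigargin at 6 h (-1.10, SE 0.25, adjusted p = 0.0040). The recovery libraries lay below the drug libraries in these 3 genes and in Nr4a2, which was not called (-0.77, SE 0.33, adjusted p = 0.097). The share of all genes tested with such a gap is not given here.

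Recovery replicate 1, the library with the high mitochondrial share, stood apart from the other recovery libraries in several genes. Klf10 had 132, 37.6 and 28.9 CPM in recovery and 146, 80.2 and 85.7 CPM in thapsigargin at 6 h (-0.65, SE 0.41, adjusted p = 0.26), and without recovery replicate 1 the difference was -1.64 (adjusted p = 7e-05). Ier2 had 312, 90.9 and 151 CPM in recovery and 126, 324 and 282 CPM in thapsigargin at 6 h (-0.40, adjusted p = 0.49), and without that library -1.01 (adjusted p = 0.038). Nr4a1 had 6.85, 15.6 and 17.1 CPM in recovery and 8.12, 6.74 and 8.08 CPM in thapsigargin at 6 h (0.80, SE 0.35, adjusted p = 0.10), and without that library 1.09 (adjusted p = 0.013). Without recovery replicate 1, 6 genes were called, with Nr4a1 higher and Nr4a3, Klf4, Klf6, Klf10 and Ier2 lower. Over all genes tested, fits with any 1 library left out called between 3505 and 5356 in this comparison, against 4601 in the full fit.

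**Figure D4:**
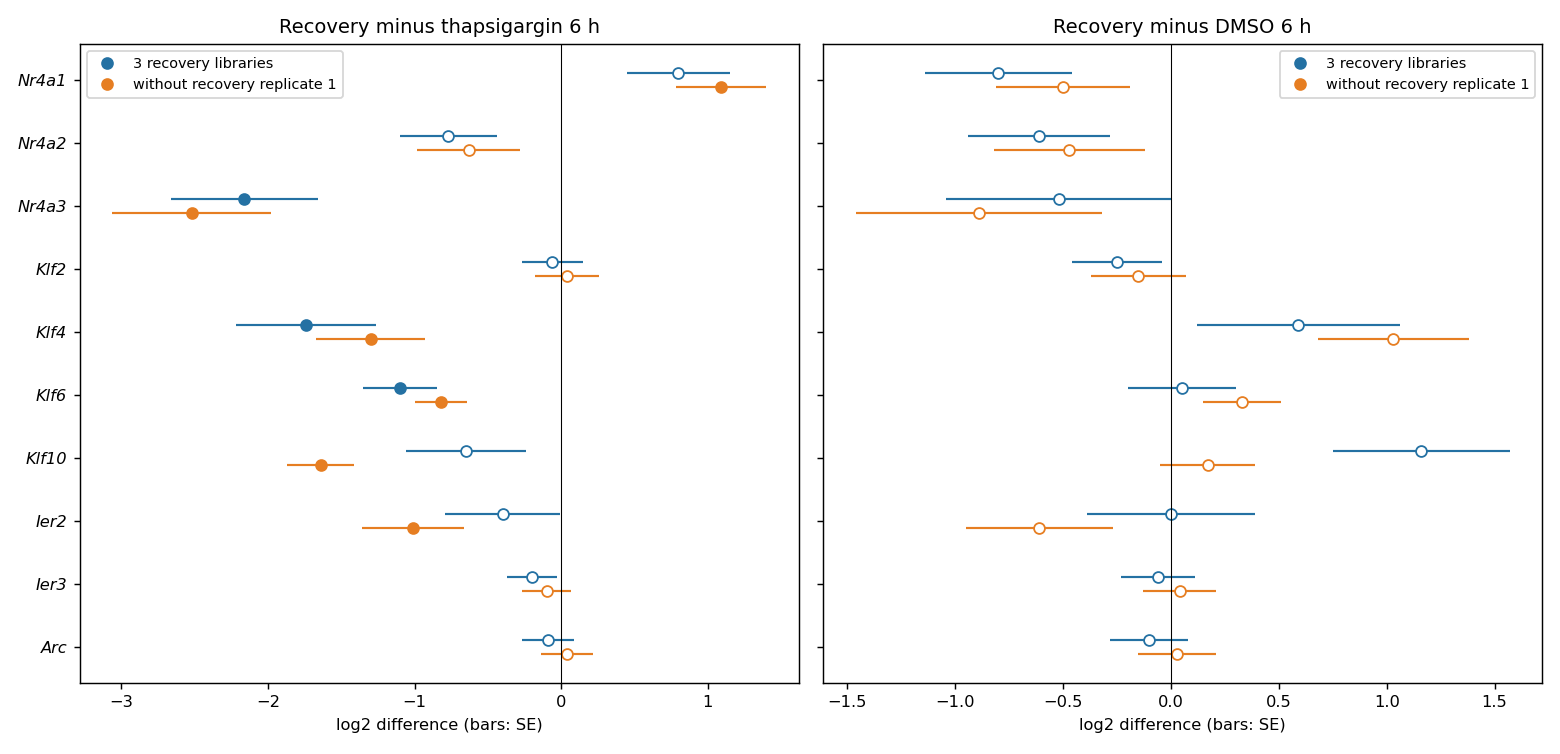
Log2 difference of recovery minus thapsigargin at 6 h (left) and recovery minus DMSO at 6 h (right) for the 10 genes, with the 3 recovery libraries and without recovery replicate 1; bars are SE, filled points have an adjusted p under 0.05. No point is filled on the right, and Klf10 moves most between the fits in both panels.

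Against DMSO at 6 h, none of the 10 genes was called in recovery, beside 0.205% of all genes higher and 0.122% lower in edgeR. DESeq2 also called none of them. At an unadjusted p under 0.05, Klf10 was higher (66.3 ± 57.4 CPM in recovery and 29.6 ± 3.42 CPM in DMSO at 6 h, SD, n = 3 each, log2 difference 1.16, interval from 0.27 to 2.05) and Nr4a1 was lower (13.2 ± 5.54 CPM in recovery and 23.1 ± 5.66 CPM in DMSO at 6 h, log2 difference -0.80, interval from -1.55 to -0.05). The Klf10 value rests on recovery replicate 1, since it was 0.17 (adjusted p = 0.70) without it. Of the 10 genes, Nr4a2 alone had no overlap between recovery and DMSO at 6 h, with 9.18, 14.7 and 10.8 CPM in recovery and 17.3, 19.6 and 16.2 CPM in DMSO (-0.61, adjusted p = 0.59). The share of all genes tested without such overlap is not given here, so no result is drawn from this gap.

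To set the genes side by side, levels were divided by exon length in kb. In thapsigargin at 2 h the order was Klf6 (254 ± 9.35 CPM per kb), Ier2 (241 ± 4.52), Klf10 (206 ± 14.3), Klf4 (143 ± 5.71), Ier3 (101 ± 8.3), Nr4a1 (79.6 ± 7.47), Klf2 (75.7 ± 3.66), Arc (43.5 ± 6.49), Nr4a2 (15.1 ± 0.562) and Nr4a3 (1.51 ± 0.191), as mean ± SD of 3 libraries. Klf6 and Ier2 lay within their spread of each other, and so did Nr4a1 and Klf2. The dependence of counts on transcript length given above was not taken out of these levels. In DMSO at 2 h Klf6 also had the highest mean (78.4 ± 4.63 CPM per kb), with a spread that overlapped that of Ier2 (68.7 ± 8.24). Nr4a3 was lowest (0.582 ± 0.374), and Klf10 stood at 23.0 ± 1.21, beside Nr4a1 at 23.7 ± 12.8 and within its spread. In thapsigargin at 12 h Ier3 was highest (108 ± 0.273 CPM per kb, n = 2), and Nr4a1 (1.06 ± 0.102) and Arc (0.768 ± 0.0481) stood just above Nr4a3 (0.211 ± 0.00304). In recovery the first place was held by Ier2 (121 ± 75.1 CPM per kb, n = 3), whose spread reached Ier3 (43.6 ± 7.89).

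Across the 19 libraries, log2 CPM of Nr4a1 followed that of Arc most closely among the other 9 genes (Pearson r = 0.931). For Nr4a3 the closest was Klf6 (r = 0.901), and for Klf4 it was also Klf6 (r = 0.888). Klf2 and Ier3 had the lowest value of all pairs (r = -0.266). These are descriptions over 19 libraries, in which the libraries of each of the 7 groups share treatment and time.

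Among 11295 other protein-coding genes, the pattern most like that of Nr4a1 over the 19 libraries was that of Hbegf, which encodes an EGF receptor ligand (r = 0.965), then Kctd11 (r = 0.962). For Nr4a2 these were Inhba, a subunit of activin (r = 0.958), and the EGF family ligand Ereg (r = 0.953). For Nr4a3 they were Tanc2 (r = 0.932) and Pvr (r = 0.921). Klf2 was closest to the myogenic factor Myod1 (r = 0.961) and to Id1, an inhibitor of such factors (r = 0.937). Klf4 was closest to Vegfa, the vascular growth factor (r = 0.979), and to Dusp16 (r = 0.969), and Klf6 to the cytokine Lif (r = 0.983) and the TGF-beta feedback inhibitor Smad7 (r = 0.971). Arc was closest to Junb (r = 0.971) and to Spry4 (r = 0.949). For Klf10 they were Zkscan5 (r = 0.92) and Plcl1 (r = 0.917), for Ier2 Osgin1 (r = 0.987) and Gadd45g (r = 0.926), and for Ier3 Atg14 (r = 0.919) and Nhlrc3 (r = 0.896).

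Of 13 other Krüppel-like factor genes, 10 passed the filter on low counts. For the gene lists from here on, counts of genes that rose in thapsigargin stand beside 3.01%, 13% and 6.29% of all genes tested at 2, 6 and 12 h, and counts of genes that fell beside 1.51%, 8.79% and 6.77%. In recovery against thapsigargin at 6 h, the shares of all genes are 11.6% higher and 13.9% lower. Without the 2 libraries of high mitochondrial share, calls over all genes numbered 1859, 6588 and 4539 at 2, 6 and 12 h, and 6249 in recovery. In the full fit they numbered 816, 3926, 2356 and 4601. At 2 h 2 of the 10 rose in thapsigargin and none fell, at 6 h 3 rose and none fell, and at 12 h 1 rose and none fell. Without the 2 libraries of high mitochondrial share 3 were called at 2 h, 5 at 6 h and 2 at 12 h. At an unadjusted p under 0.05 in edgeR 0, 1 and 0 were lower at 2, 6 and 12 h, and DESeq2 called 0, 1 and 0 lower. The medians of their log2 differences were 0.11, 0.68 and 0.06 at 2, 6 and 12 h, beside -0.04, 0.01 and 0.01 over all genes tested. Klf11, a close relative of Klf10, had 56.2 ± 3.95 CPM in thapsigargin at 2 h and 16.9 ± 2.08 CPM in DMSO at 2 h (SD, n = 3 each, log2 difference 1.74, SE 0.29, adjusted p = 0.0025), and at 6 h the difference was 1.61 (SE 0.29, adjusted p = 8.7e-04). Klf9, a factor induced by glucocorticoids, was higher in thapsigargin than in DMSO at 6 h (1.58, adjusted p = 0.0079). In recovery Klf9 (-1.35, adjusted p = 0.017), Klf11 (-1.36, adjusted p = 0.0026) and Klf15 were lower than in thapsigargin at 6 h, and none of the 10 was higher (0 at an unadjusted p under 0.05 in edgeR and 0 in DESeq2). These 3 calls became 5, with 1 higher and 4 lower, without the 2 libraries of high mitochondrial share.

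Klf15, a regulator of amino acid and glucose metabolism in muscle and liver, had no count in the 3 DMSO libraries of 2 h or of 6 h. It had 88 counts in all in thapsigargin at 2 h and 780 at 6 h. Against a floor of 3 counts per library it was at least 8.27-fold higher at 2 h and at least 76-fold higher at 6 h. At 12 h it had 281 counts in thapsigargin and 3 in DMSO, a ratio of 105 with an exact interval from 35.6 to 513 that covers counting error only. In recovery it had 1 count, and the level in thapsigargin at 6 h was 694 times that in recovery, with an interval from 124 to 27443. The test called all 4 differences (adjusted p between 9e-07 and 1.6e-04).

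**Figure D5:**
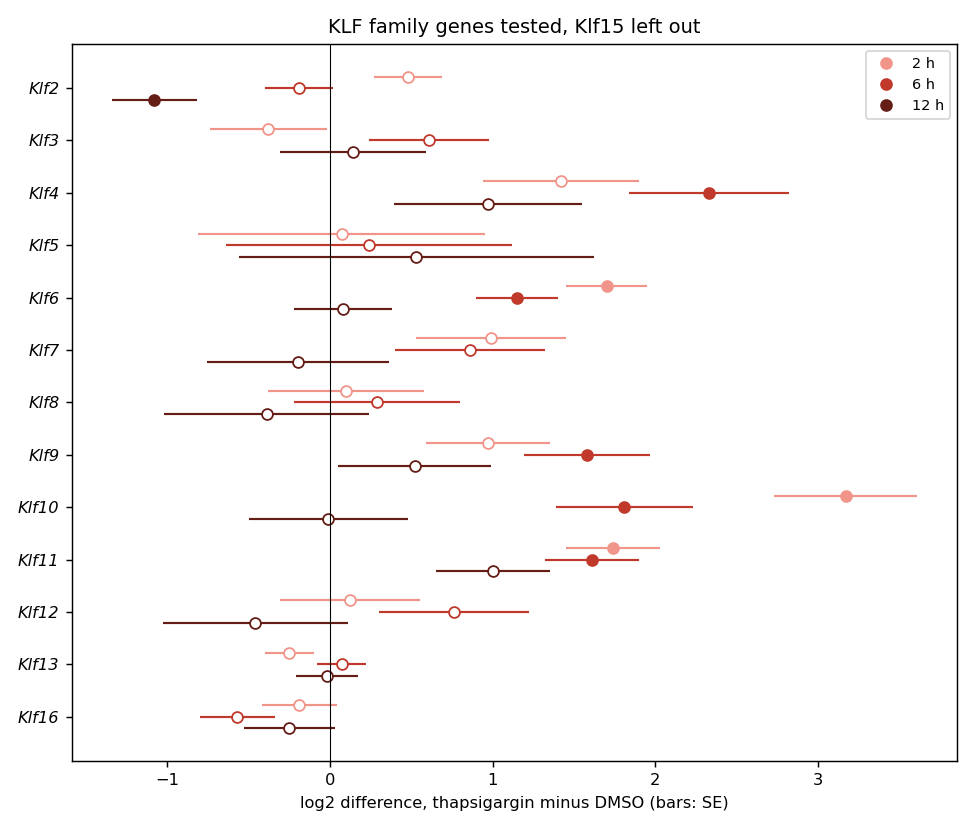
Log2 difference, thapsigargin minus DMSO, at 2, 6 and 12 h for the 4 Krüppel-like factor genes described in full and 9 others that were tested; bars are SE, filled points have an adjusted p under 0.05, and Klf15 is left out because its vehicle libraries of 2 h and 6 h had no count. Klf10 and Klf11 are filled at 2 h and 6 h, and Klf3, Klf5, Klf7, Klf8, Klf12, Klf13 and Klf16 have open points only.

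Genes known to carry calcium signals to early gene promoters were counted as a list of 26 (CREB and its coactivators, calmodulin-dependent kinases, calcineurin, NFAT and SIK genes). At 2 h 1 rose and none fell (2 were lower at an unadjusted p under 0.05 in edgeR and 0 in DESeq2), at 6 h 5 rose and 2 fell, and at 12 h 2 rose and 1 fell. The 1 gene higher at 2 h, of 26, is near the 3.01% of all genes. The medians were -0.02, 0.31 and -0.12 at 2, 6 and 12 h, beside -0.04, 0.01 and 0.01 over all genes tested. With the 2 libraries of high mitochondrial share left out, 4 rose and 1 fell at 2 h, 8 rose and 2 fell at 6 h, 3 rose and 5 fell at 12 h, and in recovery 3 rose and 3 fell. Fitting only the groups compared called 11 of the 26 at 12 h, and 8847 of all genes. The gene that rose at 2 h was Rcan1, a calcineurin regulator whose transcription follows NFAT, with 129 ± 9.43 CPM in thapsigargin and 41.3 ± 4.14 CPM in DMSO (SD, n = 3 each, log2 difference 1.64, SE 0.20, adjusted p = 1.2e-04). At 6 h the largest called differences were those of Nfatc2 (1.76, adjusted p = 0.043) and Camk2b (1.25, adjusted p = 0.048), both below 2 CPM in each group. At 12 h they were those of Ppp3ca, the catalytic subunit of calcineurin (1.31, adjusted p = 0.0014), and Camk1d (1.24, adjusted p = 0.029). In recovery 1 rose and 2 fell against thapsigargin at 6 h, led by Camkk2 (1.55, adjusted p = 4.4e-04) and Rcan1 (-1.34, adjusted p = 1.1e-04).

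Of 18 genes of MEF2, SRF, their kinases and class IIa histone deacetylases, which hold MEF2 inactive, none rose and 1 fell at 2 h, 2 rose and 3 fell at 6 h, and none rose and 2 fell at 12 h. At an unadjusted p under 0.05 in edgeR 0 were higher at 2 h and 1 at 12 h, and DESeq2 called 0 higher at both times. The 2 genes higher at 6 h, of 18, are near the 13% of all genes. Leaving out the 2 libraries of high mitochondrial share, 1 rose and 1 fell at 2 h, 3 rose and 4 fell at 6 h, 1 rose and 7 fell at 12 h, and in recovery 7 rose and 2 fell. Fitting only the groups compared called 11 of the 18 at 12 h, and 8847 of all genes. Srf was the one at 2 h (-0.86, SE 0.19, adjusted p = 0.015). At 6 h the largest differences were those of Hdac9 (1.24, adjusted p = 0.012) and Hdac7 (-1.20, adjusted p = 1.6e-04). At 12 h Elk3 (-1.77, adjusted p = 1.7e-04) and Hdac7 (-1.18, adjusted p = 0.0015) fell. In recovery 3 rose and 1 fell against thapsigargin at 6 h, led by Hdac9 (-1.67, adjusted p = 0.0016) and Elk3 (1.32, adjusted p = 1.8e-04).

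Retinoid X receptors, which pair with Nr4a1 and Nr4a2 on DNA, were represented by Rxra and Rxrb, and Rxrg did not pass the filter. Neither was called in edgeR or DESeq2 at 2, 6 or 12 h, while at an unadjusted p under 0.05 1 was higher at 2 h, 1 was lower at 6 h and 1 was lower at 12 h. With the 2 libraries of high mitochondrial share left out, 1 was called lower at 6 h and 1 at 12 h, and in recovery 1 was higher and 1 lower. Rxra was higher in recovery than in thapsigargin at 6 h (40.8 ± 4.66 CPM in recovery and 25.4 ± 0.915 CPM in thapsigargin at 6 h, SD, n = 3 each, log2 difference 0.68, SE 0.16, adjusted p = 0.0042).

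Of 13 muscle metabolic genes known to respond to NR4A receptors, 11 were tested. At 2 h 2 rose and none fell, Lpin1, a phosphatidate phosphatase (1.53, adjusted p = 0.0058), and the hexokinase gene Hk2 (0.93, adjusted p = 0.046), and 0 were lower at an unadjusted p under 0.05 in edgeR or in DESeq2. At 6 h 3 rose and 1 fell, with the largest differences in Prkag3, a subunit of AMP-activated kinase found in muscle (7.77 ± 0.534 CPM in thapsigargin and 0.609 ± 0.16 CPM in DMSO, SD, n = 3 each, log2 difference 3.67, adjusted p = 1.1e-04), and Lpin1 (1.07, adjusted p = 0.014). At 12 h none rose and 1 fell, the phosphofructokinase gene Pfkm (-1.11, adjusted p = 0.0068), while 1 was higher at an unadjusted p under 0.05 in edgeR and 0 in DESeq2. In recovery 3 rose and 2 fell against thapsigargin at 6 h, led by Prkag3 (-2.16, adjusted p = 0.0040) and the enolase gene Eno3 (1.72, adjusted p = 0.029). The recovery libraries spread widely for Eno3 (2245 ± 2182 CPM in recovery and 680 ± 290 CPM in thapsigargin at 6 h, SD, n = 3 each). When the 2 libraries of high mitochondrial share were left out, 1 gene rose and 2 fell in recovery, and 1 rose and 2 fell at 12 h. At 12 h 6 were called when only the groups compared were fitted, beside 8847 of all genes.

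Other primary response genes, outside the AP-1 and EGR families, gave the list with most calls. Of 31 tested, 8 rose and none fell at 2 h (0 were lower at an unadjusted p under 0.05 in edgeR and 0 in DESeq2), beside 3.01% of all genes higher and 1.51% lower, with a median of 0.71 beside -0.04 over all genes tested. At 2 h 21 rose when the 2 libraries of high mitochondrial share were left out, 16 in DESeq2, 5 with total-count scaling and 4 to 7 with any 1 library left out. The 8 genes called in the full fit were led by Csrnp1, a nuclear protein with a serine- and cysteine-rich region (179 ± 2.91 CPM in thapsigargin and 26.3 ± 1.45 CPM in DMSO, SD, n = 3 each, log2 difference 2.77, adjusted p = 3.8e-05), and the antiproliferative gene Btg2 (2.09, adjusted p = 7.3e-04). At 6 h 6 rose and 7 fell (9 rose and 10 fell without the 2 libraries of high mitochondrial share, and 3 rose and 3 fell with total-count scaling). Ptgs2, the inducible cyclooxygenase, rose (3.82, adjusted p = 1.1e-04) and Npas4, a neuronal activity factor, fell to 16 counts in thapsigargin, against 549 in DMSO (-5.33, adjusted p = 1.2e-05). At 12 h 3 rose and 7 fell (8 rose and 13 fell without those 2 libraries), again led by Npas4 (-4.31, adjusted p = 0.0027) and Ptgs2 (3.93, adjusted p = 8.0e-04). In recovery 4 rose and 7 fell against thapsigargin at 6 h, and the largest differences were those of Ptgs2 (-4.52, adjusted p = 2.8e-05) and Npas4 (2.91, adjusted p = 0.0017).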

How the data were processed

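Polyadenylated RNA of 19 C2C12 libraries in 7 groups was sequenced in bulk. Per the labels and the file contents, the authors deposited raw counts per gene as whole numbers, and the submitters' processing notes name Trim Galore, STAR 2.5.3a, bedtools 2.31.0, DESeq2 and the build mm10. Which program counted the reads, on which strand and against which annotation, is not given in the sources used here. Lines of unassigned reads (13.72% to 28.74% of the reads in a file) were left out. Names, positions and exon lengths came from GENCODE M21 on GRCm38, the assembly behind mm10, which matched 55141 of 55401 identifiers by base identifier. No other annotated gene overlaps the 10 genes.

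Tests used edgeR 4.0.16 in R 4.3.3 with TMM factors, filterByExpr by group and 1 quasi-likelihood fit of 7 group means (common biological coefficient of variation 0.352). P-values were two-sided and Benjamini-Hochberg adjusted over 18039 genes, with a call at an adjusted p under 0.05. The SE is the log2 difference divided by the square root of F, and intervals are at 95%. CPM values use TMM-scaled library sizes. The script was tested on simulated counts with planted changes. DESeq2 1.42.0 was an alternative, and Python 3.11.15 with pandas 2.3.3 and matplotlib 3.10.9 served for tables and drawing. Nothing in the labels tells whether the replicates of a group were grown separately, so the p-values refer to the spread between these samples, and that spread may be technical.

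The 10 genes, the lists and the tests were chosen with earlier results of these data known. All 10 genes are named. From each list, the 2 called genes of largest absolute log2 difference are named per comparison, any Krüppel-like or retinoid X receptor gene may be named, and likeness names the 2 genes with the highest Pearson r of log2 CPM (prior count 2) among protein-coding genes of at least 1 CPM on average. Alternatives were other scalings, DESeq2, no filter on low counts, only the groups compared, a replicate block, a length offset (lowess, span 0.3), and leaving out libraries.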

Additional observations from a re-analysis of the deposited data

Results flagged for a closer look

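These results were singled out because the test of the difference between times was passed: the response to thapsigargin (thapsigargin minus DMSO, log2) was lower at the later time than at 2 h. The value at 6 h minus that at 2 h was -3.35 for Nr4a1 (-1.60 at 6 h and 1.75 at 2 h) and -2.27 for Arc (-0.01 at 6 h and 2.26 at 2 h). The value at 12 h minus that at 2 h was -3.52 for Nr4a1 (-1.77 at 12 h and 1.75 at 2 h), -3.65 for Arc (-1.39 at 12 h and 2.26 at 2 h), -3.17 for Klf10 (-0.01 at 12 h and 3.17 at 2 h), -1.62 for Klf6 (0.08 at 12 h and 1.70 at 2 h) and -1.56 for Klf2 (-1.08 at 12 h and 0.48 at 2 h). Both differences of a gene share its libraries of 2 h. Groups of 2 or 3 libraries are too small for a test of single outlying libraries.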

How the results depend on the processing

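Over 1860 values of the 10 genes under alternatives, no called value changed sign, 74 calls were lost and 63 gained, and 93 uncalled differences, between -0.64 and 0.40, changed sign. With 1 library left out, called genes numbered 4 to 6 at 2 h (6 in the full fit), 4 to 5 at 6 h (5), 1 in every case at 12 h (4), 2 to 6 in recovery against thapsigargin at 6 h (3), 2 to 2 for 6 h minus 2 h (2), 0 for 12 h minus 6 h (0), 2 to 5 for 12 h minus 2 h (5), 7 to 8 for DMSO at 6 h against DMSO at 2 h (7), 1 to 3 for DMSO at 12 h against DMSO at 6 h (3) and 3 to 5 for DMSO at 12 h against DMSO at 2 h (6). Scaling by total counts left 1 call at 12 h. Fitting only the groups compared left 0 in recovery against thapsigargin at 6 h and gave 6 in DMSO at 12 h against DMSO at 6 h, where DESeq2 gave 5. For 12 h minus 6 h, RLE size factors, DESeq2, the length offset and the replicate block with length offset each gave 1. Without the 2 libraries of high mitochondrial share, the counts were 9 at 2 h, 7 in recovery against thapsigargin at 6 h, 5 for 6 h minus 2 h, 3 for 12 h minus 6 h and 7 for DMSO at 12 h against DMSO at 6 h. Calls over all genes then numbered 1859, 6249, 1975, 732 and 10088, against 816, 4601, 719, 103 and 6393 in the full fit. The cause of these changes was not tested. The 2 left-out libraries are in no group of 12 h, but all groups share 1 estimate of the spread. Of the lists, DESeq2 called 16 other primary response genes at 2 h (8 in edgeR), 4 calcium genes at 2 h (1) and 6 in recovery (3).

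Deviations from the group means of same-numbered drug and vehicle libraries had r of -0.00354, 0.0203 and 0.00372 at 2 h. At 6 h they had r of 0.303, -0.608 and 0.391, and libraries of different number had r between -0.699 and 0.673. With 2 or 3 libraries per group, such values cannot decide whether the numbers pair the samples. With the replicate block 5 of the 10 genes were called at 2 h, and Ier3 lost its call (0.73, adjusted p = 0.051). Over all genes, calls at 2 h numbered 816 in the full fit, 1859 without the 2 libraries of high mitochondrial share, 1693 in DESeq2, 518 with total-count scaling and 2404 with only the groups compared, and for 12 h minus 2 h 916, 2358, 1635, 478 and 3353. At 6 h they ranged from 2901 to 6588, at 12 h from 1546 to 8847, in recovery from 1403 to 6249 against thapsigargin and from 0 to 424 against DMSO at 6 h, for 6 h minus 2 h from 321 to 1975, for 12 h minus 6 h from 30 to 732, for DMSO at 6 h against DMSO at 2 h from 6855 to 10360, for DMSO at 12 h against DMSO at 6 h from 3280 to 10088 and against DMSO at 2 h from 850 to 2251. Total-count scaling gave 470 higher and 48 lower at 2 h (543 and 273 in the full fit), 2069 and 832 at 6 h (2341 and 1585), 1101 and 2241 in recovery against thapsigargin at 6 h (2090 and 2511), 124 and 354 for 12 h minus 2 h (347 and 569), 2865 and 1698 for DMSO at 12 h against DMSO at 6 h (3368 and 3025) and 479 and 371 against DMSO at 2 h (547 and 746). It moved the median of all genes to 0.17 at 2 h, 0.14 at 6 h, -0.13 in recovery against thapsigargin at 6 h, 0.29 in DMSO at 12 h against DMSO at 6 h and 0.25 against DMSO at 2 h. Genes near 1 CPM, such as Nr4a3, carry the widest errors at this depth.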
